A study of Mus musculus with 8 samples.

Results

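This report describes the open chromatin of 10 genes of the Notch pathway in mouse cerebellar granule neuron progenitors (GNPs), the cells that proliferate in the outer cerebellum after birth and give rise to granule neurons. The genes were the receptors Notch1, Notch2 and Notch3, the ligands Jag1, Jag2, Dll1 and Dll3, and the targets Hes1, Hes5 and Hey1. A peak was a member when any base of it lay in the body of one of these genes or in the 20 kb on either side of it. This gave 94 peaks of 152984 in the wild-type (WT) list, 72 of 106974 in the heterozygous (het) list and 110 of 174407 in the mutant list, in all 276 of 434365.

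The assay was ATAC-seq, which uses Tn5 transposase to cut and tag accessible DNA, on GNPs taken by percoll gradient from pups at postnatal day 7, with male and female pups not separated. The WT animals were Chd7 f/f without Cre, the het animals Atoh1-Cre::Chd7 f/+ and the mutant animals Atoh1-Cre::Chd7 f/f, so that all 3 groups carry a floxed allele and the WT animals lack the Cre that the other groups share. Chd7 encodes an ATP-dependent chromatin remodeller. Cre was driven by Atoh1, so that only cells of the Atoh1 lineage, which includes the granule cells, recombine, and residual Chd7 protein was seen in the posterior lobe. The labels give the strain as C56Bl6/J, and the methods describe 3 technical replicates each for WT and mutant and 2 for het.

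Each deposited list had been called on the pooled libraries of its genotype, so every value below is 1 number per genotype. The spread between replicates is unknown, and the genotypes are compared without a test. A peak's height is its pileup, the number of sequencing tags stacked at its summit, which is given as the count. Ratios were scaled for depth by the tags kept after duplicate filtering, which numbered 50394313 (WT), 51030229 (mutant) and 30923002 (het). A 95% counting interval beside a ratio covers the sampling of tags alone. WT and mutant tags were extended to 90 and 88 bp, and het tags came from another aligner and were extended to 200 bp. Het heights are therefore set beside the others but not compared, and genotype and processing cannot be told apart in them. WT and mutant were not processed alike in every respect either. Mutant tags had a size of 76 bp, whereas those of the other lists had 107 bp. The part of this difference in the ratios and overlaps of WT and mutant was not tested. A lower pileup in a bulk sample can come from fewer cells with the region open or from less opening in each cell, and these cannot be told apart. The tallest member peaks, at 79 tags in WT and 85 in mutant, lay below the ceiling of 180 and 176 tags that keeping 1 tag per position sets.

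Notch receptors are single-pass membrane proteins that are cut when a ligand of the Jagged or Delta-like family on a neighbouring cell binds them. The freed intracellular domain enters the nucleus, joins the DNA-binding protein RBPJ and Mastermind, and switches on the Hes and Hey genes, whose products are bHLH repressors that hold back neuronal differentiation. In GNPs, Notch2 and its ligand Jag1 are known for their part in keeping the progenitors in the cell cycle.

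The starts of Hes1 and Hes5 are shown first, because RBPJ binds there in many tissues. The letters searched were the RBPJ core TGGGAA, its longer form GTGGGAA, which contains the core, and CACGTG, the class C E-box bound by Hes and Hey proteins, on both strands. Both of the following runs are the 250 bases before the gene's annotated 5′ end, on the gene's strand, with the RBPJ core and the class C E-box in capitals (the core on the other strand reads TTCCCA). They lie at chr16:30064134-30064383 (Hes1) and chr4:154960673-154960922 (Hes5), both on the plus strand, in mm10 (GRCm38).
Hes1: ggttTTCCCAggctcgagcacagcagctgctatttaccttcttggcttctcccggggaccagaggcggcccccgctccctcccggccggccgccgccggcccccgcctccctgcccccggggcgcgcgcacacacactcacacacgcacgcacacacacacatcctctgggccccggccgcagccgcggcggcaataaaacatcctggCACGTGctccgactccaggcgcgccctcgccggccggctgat
Hes5: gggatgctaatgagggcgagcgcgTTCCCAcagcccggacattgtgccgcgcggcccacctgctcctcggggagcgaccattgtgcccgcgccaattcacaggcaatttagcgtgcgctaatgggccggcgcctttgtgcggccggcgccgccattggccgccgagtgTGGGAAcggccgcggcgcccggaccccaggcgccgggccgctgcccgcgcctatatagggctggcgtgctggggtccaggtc
The Hes5 run held the core at 226 and at 82 bases before the start, and the Hes1 run held it at 246 with a class C E-box at 42. In the window of 250 bases before to 50 after the 5′ end, the core was present in 4 of the 9 genes scanned (Notch1, Notch3, Hes1 and Hes5) and in 25.3% of 21911 coding genes. The longer form was present in 2 of the 9 (Notch1 and Hes5) and in 6.07% of coding genes. For Notch1 the window lies at the annotated 5′ end and not at the second start described below. The Hes1 run and window likewise cover only the annotated 5′ end. A further WT peak inside Hes1 (chr16:30065094-30065358) lay within 1 kb of an annotated start. The bases around its summit held the core at 2 places and the longer form at 1. Which start Hes1 uses in GNPs was not tested. A match describes the letters and does not show binding.

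Windows of 120 bases around summits were chosen for the tallest WT peaks away from any start site, at Jag1 and Notch2, for that of Notch3, which was also among the largest falls in mutant, and for the most significant peak held by WT alone and by mutant alone, both in introns of Notch2. Held by 1 list alone here means that no peak of the other list overlapped it, though one may lie nearby. Capitals mark the RBPJ core and the E-boxes CAGCTG and CAGATG on either strand, which proneural bHLH factors bind, and the runs read along the plus strand. The windows are chr3:98106747-98106866 (Notch2, shared), chr17:32146821-32146940 (Notch3, shared), chr2:137101263-137101382 (Jag1, shared), chr3:98063870-98063989 (Notch2, WT alone) and chr3:98051166-98051285 (Notch2, mutant alone).
Notch2 shared: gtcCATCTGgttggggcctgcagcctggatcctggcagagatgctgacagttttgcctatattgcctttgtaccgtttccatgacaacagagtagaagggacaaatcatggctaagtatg
Notch3 shared: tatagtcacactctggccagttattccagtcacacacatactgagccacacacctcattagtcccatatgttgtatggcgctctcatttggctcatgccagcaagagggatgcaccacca
Jag1 shared: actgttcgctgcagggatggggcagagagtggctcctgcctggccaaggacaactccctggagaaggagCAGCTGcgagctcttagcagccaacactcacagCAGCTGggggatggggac
Notch2 WT alone: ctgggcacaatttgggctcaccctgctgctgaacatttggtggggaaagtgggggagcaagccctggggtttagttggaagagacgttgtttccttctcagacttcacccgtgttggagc
Notch2 mutant alone: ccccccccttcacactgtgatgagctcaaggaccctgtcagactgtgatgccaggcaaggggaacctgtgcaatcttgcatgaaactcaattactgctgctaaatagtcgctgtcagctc
The Jag1 run held CAGCTG at 2 places and the shared Notch2 run held CAGATG at 1, while the other 3 runs held none of these letters. This holds for the 120 bases printed only. In the wider summit windows used for the motif shares below, the Notch2 peak of WT alone held the RBPJ core in its longer form. The Notch3 peak held CAGCTG and CAGATG there, and the Notch2 peak of mutant alone held CAGATG. The Jag1 peak held the core and CAGCTG at 3 places, and the shared Notch2 peak held CAGATG alone.

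Most peaks of the Notch genes were listed in both WT and mutant GNPs. Of the 94 WT peaks, 83 overlapped a mutant peak by at least 1 bp and 11 did not, a share of 11.7% (95% Wilson interval 6.66 to 19.8%), while over all WT peaks 22.8% had no mutant peak. In the other direction 25 of 110 peaks were in the mutant list only, or 22.7% (15.9 to 31.4%), against 30.7% over that whole list. The het list covered 64 of the 94 WT peaks (68.1%, 58.1 to 76.6%) and 70 of the 110 mutant peaks (63.6%, 54.3 to 72.0%), against 63.1% and 58.7% over the complete lists. When peaks closer than 300 bp were joined across lists, 57 of 100 regions at the Notch genes were held by all 3 lists, against 45.7% of all regions. A further 18 were held by WT and mutant (12.7% of all regions were), 13 by mutant alone (20.1%) and 4 by WT alone (13.3%). The remaining 8 were 4 held by het alone (3.52%), 3 by het and mutant (3.03%) and 1 by WT and het (1.66%). Peaks of the 10 genes within one list share libraries and sometimes a gene, so these intervals treat as independent what may not be. The Notch peaks were also taller, with a median pileup of 23 tags in WT and 24 in mutant, against 16 in both complete lists. As given below, they lay at start sites more often. The part of height and location in these shares was not tested.

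Peaks lacking in one list were on the whole weaker in the list that held them, as they were over all peaks. The 11 peaks of the WT list that mutant lacked had a median −log10 q of 2.92, against 8.17 for the 83 shared ones, and the 25 that WT lacked had a median of 4.46, against 10.2 for the others. Over all peaks these medians were 3.33 and 9.21 in WT, and 3.81 and 10.5 in mutant. Among the 66 WT peaks with −log10 q of 5 or more, 2 had no mutant peak (3.03%), against 5.78% of all such WT peaks. Among the 80 such mutant peaks 10 had no WT peak (12.5%), close to the 11.2% of all such mutant peaks.

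**Figure D1:**
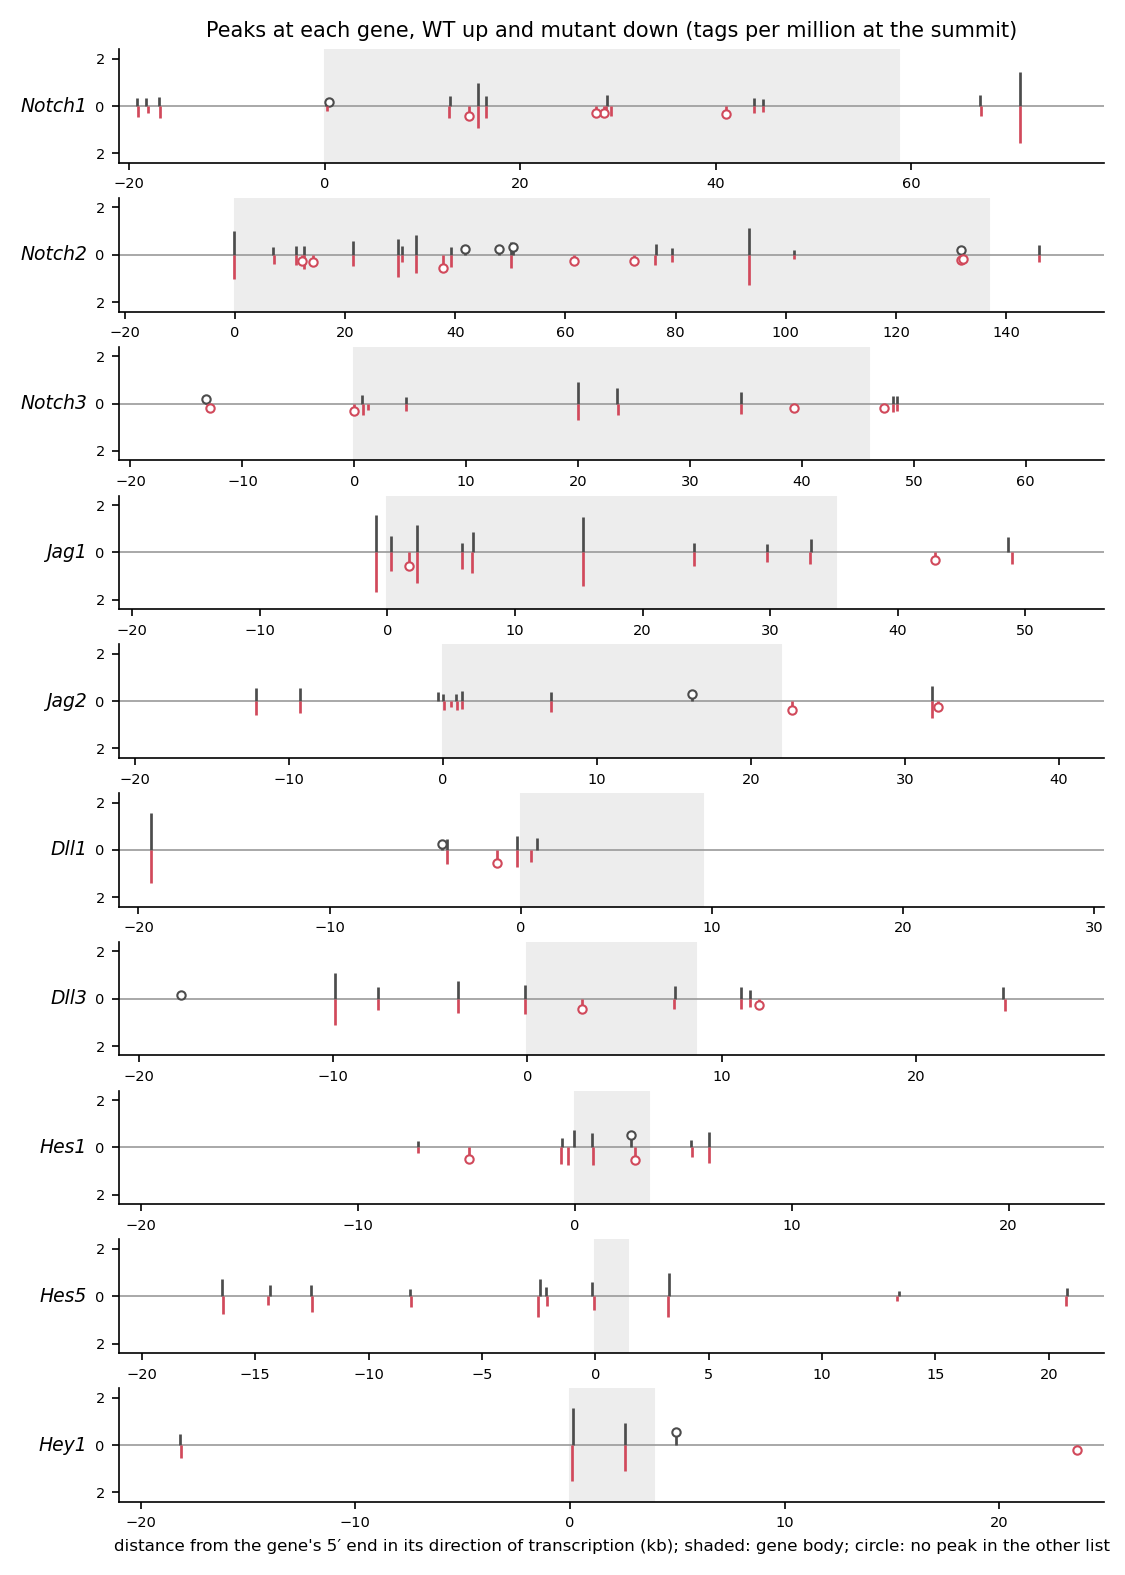
Each line is a peak at 1 of the 10 genes, placed by the distance of its summit from the gene's 5′ end in kb, with its depth-scaled pileup, WT upward and mutant downward, and an open circle where the other list has no overlapping peak. Of the 94 WT peaks 11 carry a circle, and of the 110 mutant peaks 25 do. Of these 25, 7 are at Notch2, which is 31.8% of its 22 mutant peaks, against 30.7% of all mutant peaks.

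The shared peaks differed little in height. Over the 83 shared peaks the median log2 ratio of mutant to WT depth-scaled pileup was 0.06 (95% interval of the median −0.02 to 0.14), and over all 118098 shared peaks it was 0.08. The ratio was below 0 at 34 peaks and above 0 at 49, from −0.46 to 0.86. No shared Notch peak was at least 1.5-fold lower in mutant, where 3.61% of all shared peaks were, and 4 were at least 1.5-fold higher, where 8.37% of all shared peaks were. Among the 61 with −log10 q of 5 or more in both lists, 0 were 1.5-fold lower and 2 were 1.5-fold higher, against 2.46% and 5.15% of all such peaks. The counting interval lay above 0 at 1 of the 83 peaks and below 0 at none, against 1.43% and 0.514% of all shared peaks.

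**Figure D2:**
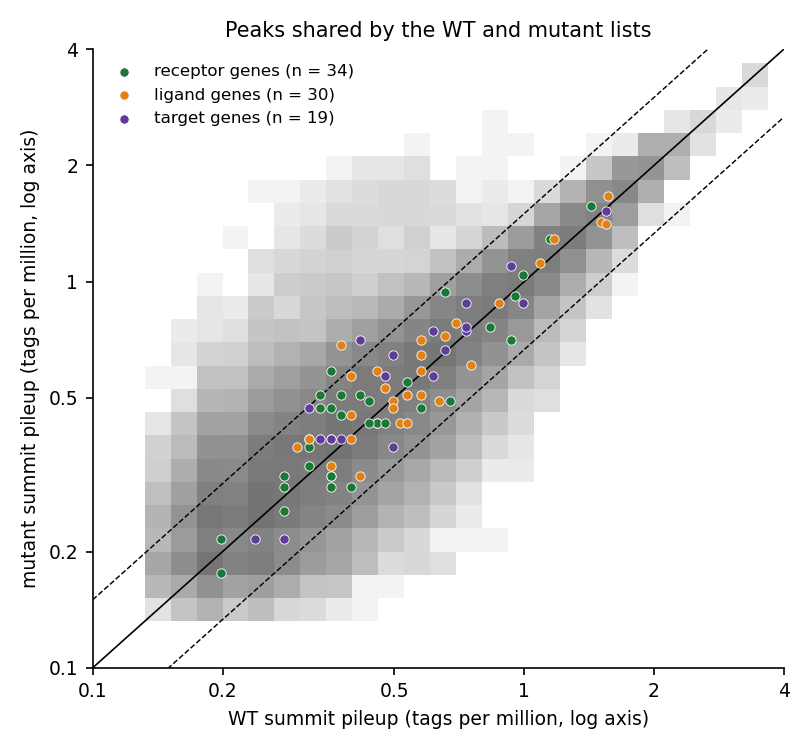
Depth-scaled summit pileup in WT (x) and mutant (y), both on log axes, for the 83 shared peaks of the Notch genes by role of the gene, over the density of all shared peaks in grey (darker is more peaks). The solid line is equality and the dashed lines are 1.5-fold, and 4 of the 83 points lie at or beyond the upper dashed line and 0 beyond the lower one.

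A promoter peak, the tallest peak reaching within 1 kb of the gene's annotated 5′ end, was found for all 10 genes in WT and mutant and for 9 in het. Over 21924 coding genes the shares were 65.3% in WT and 66.1% in mutant. At none of the 10 promoters did WT and mutant differ by 1.5-fold, and every counting interval included 0. The promoter peaks of WT and mutant overlapped at all 10 genes. At Jag2 they met only at their edges, with summits at 112930053 in WT and 112929683 in mutant. Another WT peak of Jag2 (chr12:112929670-112929866) lay inside the mutant one, so the Jag2 ratio may not be of 1 site. Over coding genes with a promoter peak in both lists, whether or not the 2 peaks overlapped, 0.528% were at least 1.5-fold lower and 1.4% at least 1.5-fold higher.

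**Figure D3:**
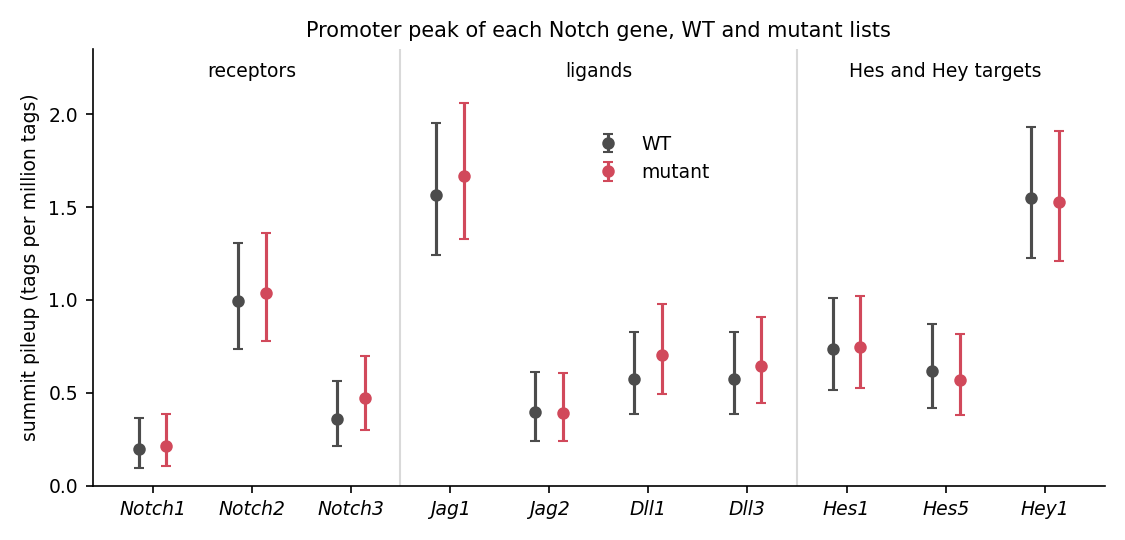
Depth-scaled summit pileup of each gene's promoter peak in WT and mutant, with 95% Poisson intervals that cover counting error only. The intervals of WT and mutant overlap at all 10 genes, and Jag1 and Hey1 stand highest in both lists.

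Among the receptors, Notch2 had the tallest promoter peak, at 50 tags in WT (chr3:98013164-98014237), 75 in het and 53 in mutant, a log2 ratio of mutant to WT of 0.07 (−0.52 to 0.65). The Notch3 promoter peak (chr17:32165540-32166193) had 18 tags in WT, 20 in het and 24 in mutant, a log2 ratio of 0.40 (−0.55 to 1.36). This was the highest ratio of the 10 promoters, and its interval was among the widest. The Notch1 peak at the annotated 5′ end (chr2:26516462-26516643) had 10 tags in WT and 11 in mutant and none was listed in het. A second Notch1 start, taken from RefSeq after the data were seen, lies inside the gene, and its peak, 12810 bp in, had 22 tags in WT (chr2:26503777-26503915), 26 in het and 25 in mutant. All 3 lists therefore held a peak at this second start, and WT and mutant held one at the first as well.

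Among the ligands, Jag1 stood apart in height. Its promoter peak (chr2:137116644-137117672) had 79 tags in WT, 113 in het and 85 in mutant, with a log2 ratio of 0.09 (−0.37 to 0.55). Dll1 (chr17:15376853-15377135) had 29, 43 and 36 tags in WT, het and mutant, and its log2 ratio of 0.29 (−0.45 to 1.05) was the second highest. A second Dll1 start, from RefSeq, had 25 tags in WT and 25 in mutant, a log2 ratio of −0.02 (−0.88 to 0.84), so that the direction depends on the start taken. Dll3, an atypical ligand that acts inside the cell (chr7:28302133-28302446), had 29, 36 and 33 tags, and Jag2 (chr12:112929989-112930096) had 20, 23 and 20. The order of the ligands was the same in the WT and mutant lists, except that Dll1 and Dll3 tied in WT.

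Among the targets, Hey1 had 78 tags in WT (chr3:8666655-8668162), 132 in het and 78 in mutant, a log2 ratio of −0.02 (−0.49 to 0.45). Hes1 (chr16:30063967-30064447) had 37, 59 and 38 tags, a log2 ratio of 0.02 (−0.67 to 0.71). Hes5 (chr4:154960595-154960951) had 31, 41 and 29 tags, and its log2 ratio of −0.11 (−0.90 to 0.66) was the lowest of the 10. The promoters of the targets, those of Hes1 and Hes5 printed above among them, thus had heights within counting error of each other in WT and mutant.

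Apart from Jag1, Hey1 and Notch2, these promoter peaks were low for coding genes. In WT, the pileup of Jag1 stood at percentile 86.3 of the promoter peaks of coding genes and that of Hey1 at 85.4. Notch2 lay at percentile 47.8, and the other 7 lay between 2.01 (Notch1) and 30.5 (Hes1). The low place of Notch1 depends on the start taken. It is for the peak of 10 tags at the annotated 5′ end, and the peak at the RefSeq start had 22 tags in WT. That is more than the promoter peaks of Notch3 (18) and Jag2 (20). Fold enrichment, the peak caller's ratio of the summit to the local background, gave lower places to Jag1 and Hey1, at percentiles 22.5 and 23.8. Its median over the 10 genes was 4.87, against 9.0 over coding genes, and Hes5, at 3.56, lay at percentile 2.93.

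Away from any annotated start site, the tallest peaks lay in introns of Jag1 and Notch2. The Jag1 intron peak (chr2:137100884-137101725), whose central bases are printed above, had 76 tags in WT, 111 in het and 73 in mutant, nearly the height of the Jag1 promoter peak. It stood 15321 bp into the gene, and 2 further shared intron peaks of Jag1 had 59 and 44 tags in WT and 66 and 45 in mutant. The Notch2 intron peak (chr3:98106534-98107137), 93280 bp into the gene, had 58, 88 and 66 tags in WT, het and mutant, more than the Notch2 promoter peak in each list. Its log2 ratio of mutant to WT was 0.17. Next came an exon peak of Notch1 with 48 tags in WT and 47 in mutant, an exon peak of Hey1 with 47 and 56, and an intron peak of Notch3 with 47 and 36. At the other ligands the tallest such WT peak had 33 tags (Jag2), 25 (Dll3) or 23 (Dll1), and 37, 24 or 30 in mutant. At Hes1 a peak 6171 bp after the start had 33 and 34 tags, and at Hes5 a peak at −16465 bp from the start had 37 and 39. That Hes5 peak was the tallest such peak in WT only. In het and mutant another was taller, at −2517 bp with 54 tags in het and at −2518 bp with 45 tags in mutant.

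The 5 largest falls among shared peaks with −log10 q of 5 or more in both lists included 2 inside Notch3. An exon peak of Notch3 (chr17:32143084-32143512) had 34 tags in WT and 25 in mutant, a log2 ratio of −0.46. The Notch3 intron peak printed above (chr17:32146688-32147127) had 47 tags in WT, 51 in het and 36 in mutant, a log2 ratio of −0.40. The others were a peak past the end of Notch2 (20 to 15 tags, −0.43), a peak before Hes5 (25 to 19, −0.41) and an exon peak of the neighbour Slx4ip in the Jag1 window (32 to 25, −0.37). None of these 5 reached 1.5-fold, and the counting interval of each included 0.

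Of the 5 largest rises, 3 were in introns of Notch2. The first (chr3:98026008-98026184), 12557 bp into the gene, had 18 tags in WT, 40 in het and 30 in mutant, a log2 ratio of mutant to WT of 0.72. The second (chr3:98052665-98052992) had 17 tags in WT and 26 in mutant (0.59), and the third (chr3:98042963-98043462) had 33 and 48 (0.52). An exon peak of Jag1 had 20 and 29 tags (0.52) and a peak 19146 bp before Notch1 had 17 and 24 (0.48). The counting interval of each of the 5 included 0. Notch2 thus held both of the strong peaks past 1.5-fold, and its 15 shared peaks as a group had a median log2 ratio of 0.07 (−0.17 to 0.30).

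Past 1.5-fold among weaker peaks were a Jag1 intron peak (chr2:137110729-137110841) and a Hes1 peak upstream of the start (chr16:30063565-30063820). The Jag1 peak had 19 tags in WT and 35 in mutant, a log2 ratio of 0.86 (0.02 to 1.75), and was the peak whose interval lay above 0. Its −log10 q was 1.43 in WT, near the limit of the list, and no het peak overlapped it. The Hes1 peak, whose summit was 599 bp before the 5′ end, had 21 and 36 tags, a log2 ratio of 0.76 (−0.06 to 1.61), and in het it was joined with the promoter peak into a single one.

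By −log10 q, the peaks held by only one list were led by Notch2 in both directions. The Notch2 window was the largest, at 177 kb, and its shares of unshared peaks were near those of all peaks. They were 4 of 19 WT peaks (21.1%, against 22.8%) and 7 of 22 mutant peaks (31.8%, against 30.7%). In the mutant list an intron peak 37699 bp into Notch2 (chr3:98051172-98051301), printed above, had 28 tags and a −log10 q of 11.3, with no peak in WT or het. The next were a peak past the end of Jag2 (chr12:112906975-112907204, 19 tags, −log10 q 9.70), a peak 4887 bp before Hes1 (chr16:30059354-30059562, 25 tags, 8.11), an intron peak of Dll3 (chr7:28299369-28299501, 22 tags, 7.56) and a peak 1230 bp before Dll1 (chr17:15378043-15378173, 28 tags, 6.98). The Dll3 peak was also in the het list, with 27 tags, and the others were not.

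In the WT list the leading peak without a mutant partner was another Notch2 intron peak (chr3:98063891-98064002, 16 tags, −log10 q 5.47), also printed above. A mutant peak (chr3:98063273-98063739), which overlapped the neighbouring WT peak (chr3:98063397-98063730), ended less than 300 bp before it. It would thus count as shared if peaks within 300 bp were taken as shared. A peak past the end of Hey1 (chr3:8662213-8662404) followed, with 28 tags and a −log10 q of 5.17. A Hes1 peak (chr16:30066933-30067027, 26 tags, 4.71) lay 44 bp from a mutant peak with 27 tags (chr16:30067071-30067218), so that both lists held a peak here but the peaks did not overlap. The remaining 2 were in an intron of Notch2 (13 tags, 3.55) and before Notch3 (9 tags, 2.97). The peak before Notch3 also had a mutant peak within 300 bp (chr17:32179748-32179839). None of these 5 had a het peak. At Jag1 and Hes5, all WT peaks (10 at each gene) had a mutant peak.

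By role, the shares of unshared peaks lay at or below those of all peaks (22.8% in WT and 30.7% in mutant). Of 40 WT peaks at receptors 6 had no mutant peak (15%, 7.06 to 29.1%) and of 51 mutant peaks 15 had no WT peak (29.4%, 18.7 to 43.0%). For ligands the counts were 3 of 33 and 7 of 37 (18.9%, 9.48 to 34.2%), and for targets 2 of 21 and 3 of 22 (13.6%, 4.75 to 33.3%). The intervals of the 3 roles overlapped, and peaks at receptors were also lower, with a median pileup of 18 tags in WT against 26 for ligands and for targets. The median log2 ratio of shared peaks was 0.07 for receptors, 0.03 for ligands and 0.06 for targets.

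Not every peak in the windows belongs to a Notch gene by position. In WT, 34 of the 94 peaks had a summit within 1 kb of an annotated transcript start (36.2%, against 16.1% of all WT peaks), 23 of them at a start of a member and 11 at a start of another gene. The tallest peak in the Dll1 window, with 78 tags in WT, 106 in het and 72 in mutant, was at the start of Fam120b, and the tallest in the Dll3 window, with 55 and 57 tags in WT and mutant, was at the start of Timm50. The tallest in the Hes5 window in WT, with 50 tags, was at a start of Pank4. In mutant it had 45 tags, as did the peak 2518 bp before Hes5. The tallest in the Notch1 window, with 72 and 80 tags in WT and mutant, was at the start of 0610009E02Rik. The windows of Hes1 and Hey1 held no other coding or long non-coding gene. Dll1 overlaps the antisense gene A930024N18Rik, whose opening cannot be separated from that of Dll1.

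The peaks of the Notch genes were richer in G and C than the rest. In the 300 bases around the summit, the median GC content was 56.7% for the 94 WT peaks and 50% for all WT peaks, and away from start sites it was 54.8% and 49.0%. The RBPJ core was in 28 of the 94 windows (29.8%, 21.5 to 39.7%) and in 27.0% of all. The longer form was in 14 of 94 (14.9%, 9.08 to 23.5%) and in 6.81% of all, and in the mutant list in 13 of 110 (11.8%, 7.04 to 19.2%) against 6.83%. Of the 14 WT windows, 5 were at Hes5, where the window of the promoter peak and that of a peak 2455 bp before the start held it at 2 places each. The part of base composition in this share was not tested.

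**Figure D4:**
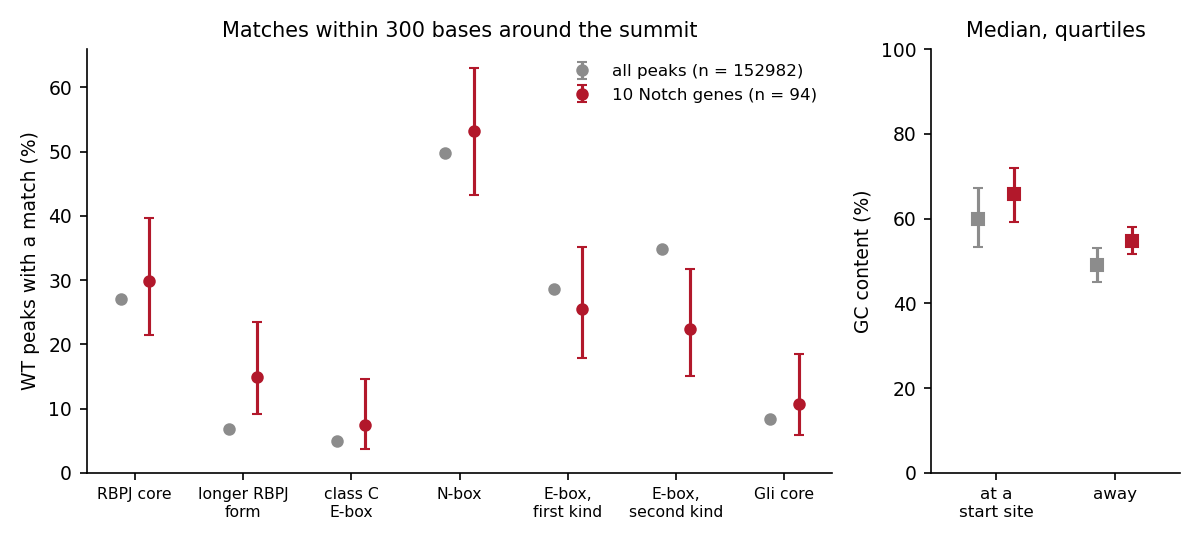
Left, the percentage of WT peaks with a match to each motif in the 300 bases around the summit, for all peaks and for the 94 peaks of the Notch genes, with 95% Wilson intervals. Right, the median GC content with quartiles for peaks at and away from start sites (grey, all peaks, and red, Notch genes), where the Notch genes lie higher in both classes.

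The E-box CAGATG was in 21 of 94 WT windows (22.3%, 15.1 to 31.8%) against 34.8% of all, and CAGCTG was in 24 (25.5%, 17.8 to 35.2%) against 28.6%. In the mutant list the 2 E-boxes were in 27.3% (19.8 to 36.3%) and 19.1% (12.8 to 27.4%) of the 110 windows, against 33.7% and 28.4%. Start sites, where CAGATG was in 18.9% of all WT windows, made up more of the Notch peaks. Away from them CAGATG was in 28.3% of the Notch windows (18.5 to 40.8%) and in 37.8% of all, and CAGCTG in 31.7% (21.3 to 44.2%) and 29.7%. The class C E-box was in 7 of 94 (7.45%) against 4.91%, the N-box CACNAG in 50 (53.2%) against 49.8%, and the Gli core CCACCCA in 10 (10.6%) against 8.40%. The full palindromic NFI site was in none of the 94 windows and in 0.114% of all.

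For the rest of the pathway, the promoters of 47 other Notch genes were examined. A promoter peak was listed for 41 in WT (87.2%), 40 in het (85.1%) and 39 in mutant (83.0%). Over all coding genes the shares were 65.3%, 63.3% and 66.1%. Of the 39 genes with one in both WT and mutant, 36 had peaks that overlapped. At these 36, 0 were 1.5-fold lower and 0 were 1.5-fold higher. Over the 13637 coding genes with overlapping promoter peaks, 61 were lower and 165 higher. Both are small shares, so that 0 of 36 does not set these genes apart. The log2 ratio at the 36 had a median of 0.01 and ranged from −0.41 for Rfng, a glycosyltransferase that modifies Notch receptors, to 0.57 for Dlk2, a non-canonical ligand. Hes6, which counteracts Hes1, had 65 tags in WT and 69 in mutant, and Hey2, a relative of Hey1, had 89, 141 and 90 in WT, het and mutant. No promoter peak was listed in any of the 3 lists at the annotated 5′ ends of Dlk1, Rbpj, Hes3, Hes7 and Heyl. The vascular ligand Dll4 had one in WT alone (22 tags), Psen2 in WT alone (14 tags) and Notch4 in het alone (11 tags). Only the annotated 5′ ends of these 47 genes were searched, so a peak at another start, of Rbpj for example, would not be seen here.

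Promoters of marker genes were listed by cell type. All 10 promoters of granule progenitor genes, Atoh1 with 67, 114 and 82 tags in WT, het and mutant among them, had a peak in all 3 lists, and 0 of 3 microglial promoters had one. Promoters of Bergmann glia and astrocytes, cells in which Notch signalling is also active, had a peak at 4 of 6 in each list, with Aqp4 and Aldh1l1 in none. Endothelial promoters had one at 2 of 3, oligodendrocyte ones at 2, 2 and 3 of 4 in WT, het and mutant, Purkinje ones at 3, 3 and 2 of 4, and interneuron ones at 2, 1 and 2 of 3. Over all coding genes 65.3% had one in WT, 63.3% in het and 66.1% in mutant. Shares near these, such as the 66.7% of glial and of endothelial promoters in each list, say little about which cells were present. Summed fold enrichment of the glial promoters was 24.1 (WT), 26.6 (het) and 26.1 (mutant). Of the 4, 1 was past 1.5-fold, Gdf10 with 17 tags in WT and 26 in mutant, a log2 ratio of 0.59 (−0.34 to 1.57). Over coding genes 1.4% were at least 1.5-fold higher, and 4 promoters are too few to set beside this share. WT and mutant peaks overlapped at 3 of the 4, not at Slc1a3. At Gdf10 their summits differed (33923660 in WT and 33923319 in mutant). The part of glia and other cell types in the Notch peaks was not tested. The Chd7 promoter itself had 40, 63 and 52 tags, which does not check the deletion, since the deleted part was not located here.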

How the data were processed

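The authors trimmed reads with Trim Galore 0.4.1, aligned them to mm10 and removed duplicates with Picard 1.139. The submitters' processing notes name both STAR 2.5.0b and Bowtie 1.0.0, and per the file headers the WT and mutant lists came from a STAR folder without read shift and the het list from a bowtie folder with a shift and an extension of 200 bp. Peaks were called by the authors with MACS2 2.1.0.20150731 on pooled libraries without a control. The deposited columns used were the pileup signal, the fold enrichment (a ratio to local background) and the −log10 q value. Tag totals before duplicate filtering were 59670764 for WT, 34286159 for het and 61279819 for mutant. Values of single libraries were not used here, and the start of Hey1 was left out of the search for motifs at starts.

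Groups followed the labels. Genes, starts and exons were taken from GENCODE vM21 and bases from GRCm38.p6 (samtools 1.23.1). Each WT peak was paired with the tallest mutant peak that overlapped it by 1 bp or more, and the log2 ratio of pileup over tags kept was given with a Clopper-Pearson 95% interval. Shares carry Wilson intervals and medians order-statistic intervals. A ratio of 1.5-fold was called, with no p-value. Named peaks were each gene's promoter peak, its tallest peak away from starts, the 5 most significant unshared peaks of each list, and the 5 largest falls and rises with −log10 q of 5 or more in both lists. The 2 weaker peaks past 1.5-fold, the comparison peaks of neighbouring genes and the further Jag1 intron peaks were named after their values were seen. The members and lists were chosen with earlier results of these data known. Pairing and intervals were tested on simulated data. Alternatives were another overlap rule, a stricter q, lists of equal size, a 5 kb flank, fold enrichment and another scaling.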

Additional observations from a re-analysis of the deposited data

How the results depend on the processing

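A mutant peak was lacking at 11.7% of WT peaks, and this was 22.3% when the overlap had to cover 50% of both peaks and 5.32% when peaks within 300 bp counted as shared (19.3% over all WT peaks), and the 22.7% of mutant peaks that WT lacked became 33.6% with the 50% overlap. With the same rule, 56.4% of WT peaks and 51.8% of mutant peaks had a het peak (50.1% and 45.5% over all peaks). With −log10 q of 5 or more in both lists these 2 shares were 83.3% and 75% (77.5% and 71.1% over all peaks). With lists of equal size they were 79.7% and 80.0%, against 79.3% and 80.2% over all peaks, so that the higher het share at the Notch genes was no longer seen. The number of shared peaks at least 1.5-fold higher in mutant, 4 on pileup, was 1 on fold enrichment, 2 with −log10 q of 5 or more in both lists, and 1 when a peak counted only where its counting interval lay apart from 0, a rule chosen after seeing the data. In each of these settings 0 peaks were 1.5-fold lower. The median log2 ratio of shared peaks lay between −0.02, when scaled to the median of all shared peaks, and 0.07 in the other planned settings. No paired analysis was possible because each list pools the libraries of its genotype, and no replicate could be left out for the same reason. Over all peaks of the lists the 50% overlap gave 35.9% for WT and 43.8% for mutant. The mutant share came closest to that of all peaks with −log10 q of 5 or more in both lists (22.5% and 24.0%) and with lists of equal size (17.5% and 18.6%). The counting interval lay apart from 0 at 1 of the 83 shared peaks. Over all shared peaks it lay above 0 at 1.43% and below 0 at 0.514%. The part of sequencing depth in this was not tested.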
